A study of Mus musculus with 6 samples.

Results

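The messages described here encode the nuclear subunits of respiratory complexes II, III and IV, of cytochrome c and of complex V, the ATP synthase. They were defined by a pattern of gene symbols, with pseudogenes left out, and the choice was made with earlier results of these data known. The pattern covered Sdha to Sdhd, the Uqcr subunits, Cyc1 and Cycs, the commonly expressed Cox subunits and every symbol that starts with Atp5. The pattern took 46 symbols, 5 of them pseudogenes, which left 41 genes among the 51912 genes matched in the libraries, and all 41 were among the 13231 genes with enough counts to test. They are 4 genes of complex II, 10 of complex III with cytochrome c, 10 of complex IV and 17 Atp5 genes counted as complex V. The source was E14, an established line of mouse embryonic stem cells, grown with leukemia inhibitory factor on gelatin, and poly(A) RNA was sequenced. All 6 libraries came from cells given cycloheximide, which stops elongating ribosomes, shortly before harvest. In 3 libraries, called pellets, the RNA came from the ribosome-containing pellet of a sucrose cushion, and in the other 3, called eluates, from such pellet material after binding to and elution from a resin charged with cysteine (the RAPIDASH procedure). The comparison asks which poly(A) messages the resin step leaves at a higher or lower share than the cushion alone.

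The respiratory chain passes electrons from reduced cofactors to oxygen and pumps protons across the inner mitochondrial membrane, and the ATP synthase uses the returning protons to make ATP. Complex II, succinate dehydrogenase, feeds electrons from succinate into ubiquinone, complex III passes them from ubiquinol to cytochrome c, and complex IV, cytochrome c oxidase, passes them to oxygen. All complex II subunits are encoded in the nucleus, whereas complexes III, IV and V also hold subunits encoded in mitochondrial DNA and made on mitochondrial ribosomes. The nuclear messages are translated in the cytosol and their products are then imported.

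Library totals were 7.84e+06 to 1.16e+07 estimated counts, and the 41 genes had at least 23 counts in every library. The labels number the samples 1 to 3 within each kind without naming separate cultures, and p-values therefore reflect only the spread among these libraries, which may be technical. The summed TPM (abundance per transcript length on a scale of equal library totals) of 8 embryonic stem cell markers was 11112 to 12430 in the pellets and 14574 to 14664 in the eluates. Of these 8, Dppa5a, Pou5f1 and Esrrb were higher in the eluates, Sox2 and Zfp42 were lower and Nanog, Klf4 and Tdgf1 did not pass the test described below, and Dppa5a alone gave 7134 to 8008 TPM in the pellets and 10196 to 10364 TPM in the eluates. The sums for primitive endoderm, mesoderm, neural and fibroblast markers were at most 12.5. Values below are relative within a library, so a higher share of 1 message and a lower share of others cannot be told apart.

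Of the 41 subunit messages, 26 were higher in the eluates, 2 were lower (Sdha and Uqcrc2) and 13 did not pass an adjusted p of 0.05 in edgeR's quasi-likelihood test. Among all genes tested, 24.5% were higher and 28.2% were lower, so that 52.7% were called in either direction. The median log2 fold change of eluate over pellet was 0.30 for the subunit messages and 0.0035 for all genes tested. In 27 of the subunit messages all 3 eluates lay above all 3 pellets in CPM (read counts relative to the library's scaled total), and in 2 all eluates lay below, against 29.1% and 31.2% of all genes tested (60.3% in either direction). In complex IV 8 of 10 messages rose, with a median of 0.60, and none fell. In complex V 10 of 17 rose and none fell, with a median of 0.29. In complex III with cytochrome c 5 of 10 rose and 1 fell, with a median of 0.26, and in complex II 3 of 4 rose and 1 fell, with a median of 0.27.

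**Figure D1:**
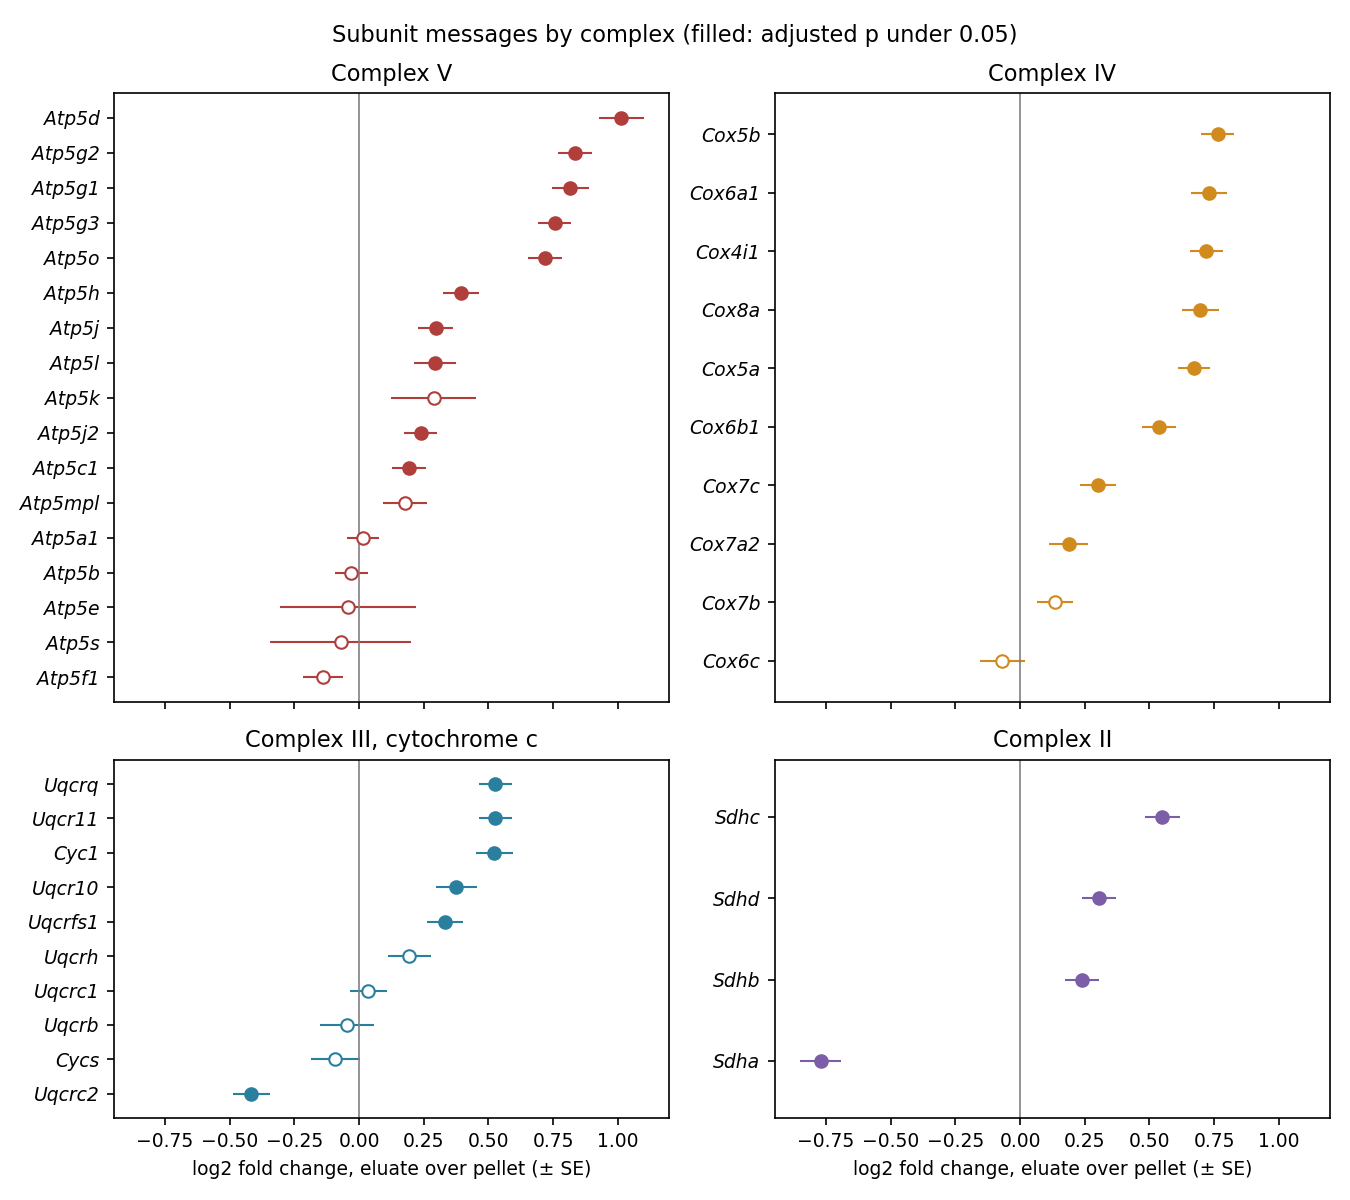
Log2 fold change of eluate over pellet for each of the 41 subunit messages (x axis, points with bars of 1 standard error), by complex, with filled points for an adjusted p under 0.05 in edgeR. The points run from -0.77 for Sdha to 1.01 for Atp5d, and the 5 highest messages of complex V, from Atp5o at 0.72 to Atp5d, stand apart from the other 12.

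As counted, the messages of the membrane rotor ring and of 2 small subunits, delta and OSCP, rose most within the ATP synthase. Those of the abundant catalytic subunits did not pass the test. The catalytic head is built from the alpha subunit (Atp5a1) and the beta subunit (Atp5b), which binds the nucleotide at the catalytic site, around a central stalk of gamma (Atp5c1), delta (Atp5d) and epsilon (Atp5e). For Atp5d the 3 pellets gave 226, 174 and 187 CPM, in the order of their numbers, against 409.8, 389.6 and 385 CPM for the eluates. This was a 2.02-fold difference, a log2 fold change of 1.01 ± 0.085 (SE; adjusted p = 4.12e-07). The groups did not overlap, and pellet 1 was the highest pellet. Atp5b, by contrast, gave 2023, 1874 and 1886 CPM in the pellets and 1984, 1867 and 1816 CPM in the eluates. These ranges overlapped almost entirely, and its log2 fold change was -0.029 ± 0.065 (adjusted p = 0.729; 95% interval -0.15 to 0.092 from limma's voom fit). Atp5a1 was at 0.016 ± 0.062, with an interval of -0.10 to 0.13. For both catalytic subunits the interval therefore leaves out a change as large as that of Atp5d. Atp5c1 rose by 0.19 ± 0.066 (adjusted p = 0.0215), a call that was lost without eluate 1, eluate 2 or pellet 3 (adjusted p of 0.0846, 0.118 and 0.0905) and without the pair numbered 2 or 3 (adjusted p of 0.135 and 0.0679). Atp5e was thinly counted, at 26 to 57 counts per library against a lowest library count of 14119 for Atp5b. Its TPM was 20.5 ± 1.96 in the pellets and 18.8 ± 5.81 in the eluates (SD, n = 3), far below the other head and stalk subunits, and its log2 fold change was -0.044 ± 0.26. It was counted only from transcripts that matched the annotation, and whether other transcripts hold more of it was not tested.

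The 3 genes of the rotor ring, Atp5g1, Atp5g2 and Atp5g3, encode the same mature c subunit with different import sequences. Their coding sequences are shown to let a reader compare 3 messages that rose by similar amounts as counted. Whether the shared sequence bears on the rise was not tested. In the GENCODE mouse release 21 transcripts, the last 78 codons of each encode identical residues and differ in 63 of 234 bases, 55 of them at the last position of a codon. The stretch is written 5′ to 3′ without the stop codon, with capitals at the bases that are not shared by all 3 genes.
Atp5g1: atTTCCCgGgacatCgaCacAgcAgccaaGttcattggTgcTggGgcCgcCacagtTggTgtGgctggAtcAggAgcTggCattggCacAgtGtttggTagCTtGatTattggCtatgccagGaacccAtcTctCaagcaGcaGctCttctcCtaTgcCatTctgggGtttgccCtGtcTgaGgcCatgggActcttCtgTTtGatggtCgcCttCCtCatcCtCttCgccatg
Atp5g2: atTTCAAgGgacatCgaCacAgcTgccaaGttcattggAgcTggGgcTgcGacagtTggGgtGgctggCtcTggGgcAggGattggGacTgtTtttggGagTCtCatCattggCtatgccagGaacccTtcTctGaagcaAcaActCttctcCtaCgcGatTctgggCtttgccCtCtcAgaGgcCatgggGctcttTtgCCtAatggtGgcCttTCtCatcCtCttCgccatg
Atp5g3: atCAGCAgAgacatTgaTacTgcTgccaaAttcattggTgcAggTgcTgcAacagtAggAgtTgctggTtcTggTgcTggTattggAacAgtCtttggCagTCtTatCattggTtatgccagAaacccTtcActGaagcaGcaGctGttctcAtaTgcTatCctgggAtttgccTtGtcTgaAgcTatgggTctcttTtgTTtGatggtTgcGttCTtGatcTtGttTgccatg
Over this stretch Atp5g1 and Atp5g2 were identical at 84.6% of bases, Atp5g1 and Atp5g3 at 78.6%, and Atp5g2 and Atp5g3 at 77.4%. Their full coding sequences had no 31-base run in common. The last codon position was G or C in 62.8% of codons in Atp5g1, 61.5% in Atp5g2 and 39.7% in Atp5g3.

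All 3 ring genes rose, by similar amounts as counted. With the GC and length trend described below removed they were less alike, with Atp5g3 at 0.55, Atp5g1 at 0.32 and Atp5g2 at 0.30. Atp5g2 was at 403, 382 and 356 CPM in the pellets and at 695, 677 and 665 CPM in the eluates, a log2 fold change of 0.84 ± 0.066 (adjusted p = 1.7e-07). Atp5g1 was at 315, 286 and 267 CPM in the pellets and 483, 521 and 525 CPM in the eluates, for 0.82 ± 0.072 (adjusted p = 3.48e-07). Atp5g3 was at 413, 419.9 and 380.4 CPM in the pellets and 689, 691 and 669 CPM in the eluates, for 0.76 ± 0.064 (adjusted p = 2.73e-07). No pellet reached any eluate in the 3 genes, their standard errors overlapped, and differences between their fold changes were not tested. A processed copy of Atp5g2, whose transcript holds 87.7% of the 31-base runs of the Atp5g2 message, had 205 to 549 counts per library. Adding the counts of such copies to the subunit genes left every one of the 41 calls as it was.

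**Figure D2:**
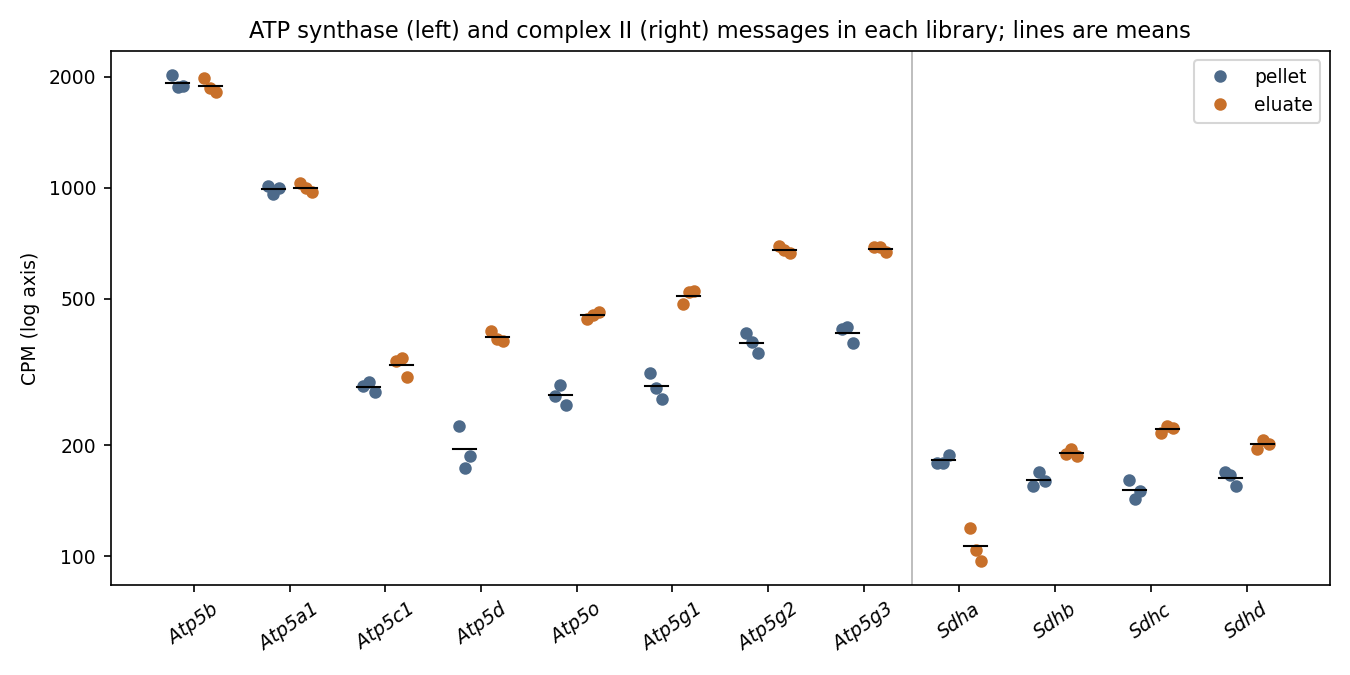
CPM on a log axis in each of the 3 pellets and 3 eluates, with lines at the means, for 8 ATP synthase messages and the 4 complex II messages. Atp5b and Atp5a1 overlap between groups, Atp5d, Atp5o and the 3 ring genes lie higher in every eluate, and Sdha is the one message shown that lies lower in every eluate.

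The ratio of ring to head messages followed these values. Per length, the summed TPM of the 3 ring genes over that of Atp5a1 and Atp5b was 1.48, 1.56 and 1.39 in the pellets and 2.47, 2.66 and 2.74 in the eluates. The mean ratio went from 1.48 ± 0.086 to 2.62 ± 0.14 (SD, n = 3), a pair of gene groups picked after their values were seen and therefore given without a test. In contrast, Atp5g3 over Atp5g2 stayed near 1.15 in the pellets and 1.13 in the eluates.

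The peripheral stalk holds the head still against the turning ring. Its messages split: Atp5o, which encodes the OSCP subunit at the top of the stalk, rose by 0.72 ± 0.065, from 274 ± 16.9 to 451 ± 9.78 CPM. Atp5h (subunit d) rose by 0.39 ± 0.070 and Atp5j (subunit F6) by 0.30 ± 0.067, and Atp5j turned to -0.23 once the trend in GC content and length described below was removed. Atp5f1, the long subunit b of the stalk, gave 299, 371 and 342 CPM in the pellets and 301, 323 and 295 CPM in the eluates. Its groups overlapped through pellet 1, with a log2 fold change of -0.14 ± 0.077 (adjusted p = 0.146), and without pellet 1 it was called lower at -0.22 (adjusted p = 0.00129). The small membrane subunits lay between these. Atp5l (subunit g) rose by 0.29 ± 0.080 and Atp5j2 (subunit f) by 0.24 ± 0.065, while Atp5k (subunit e) at 0.29 ± 0.17 and Atp5mpl, a small proteolipid of the complex, at 0.18 ± 0.086 did not pass. The calls were lost for Atp5l without the libraries numbered 2 (adjusted p = 0.0597) and for Atp5j2 without those numbered 3 (adjusted p = 0.0703), and Atp5j2 turned to -0.18 with the GC and length trend removed. Atp5k was called without eluate 3 (0.41; adjusted p = 0.0399) and without pellet 2 (0.45; adjusted p = 0.0262). Atp5s was taken in by its symbol, without a check that it encodes a structural subunit. With 23 to 52 counts per library it was at -0.070 ± 0.27, with a wide 95% interval of -0.55 to 0.61. It was called higher at 0.72 (adjusted p = 0.0154) with the GC and length trend removed.

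In cytochrome c oxidase the messages of the matrix-side subunits and of most small subunits rose. Cox5b, a nuclear subunit on the matrix side, was at 203, 211 and 192 CPM in the pellets and at 345, 333 and 351 CPM in the eluates (0.76 ± 0.064; adjusted p = 2.61e-07). Cox4i1, the common form of subunit IV and a regulatory subunit, was at 631, 631 and 578 CPM in the pellets and at 1002, 1037 and 992 CPM in the eluates (0.72 ± 0.064; adjusted p = 4.01e-07). Cox5a, the other matrix-side subunit, was at 269.6, 264 and 251 CPM in the pellets and 412, 416 and 423 CPM in the eluates (0.67 ± 0.061; adjusted p = 4.72e-07). In these 3 genes the lowest eluate was well above the highest pellet, and the spread within a group was small. Among the messages of small subunits Cox6a1 rose by 0.73 ± 0.070, Cox8a by 0.70 ± 0.070 and Cox6b1 by 0.54 ± 0.065. Cox7c, the most abundant complex IV message per length, was at 486, 524 and 509 CPM in the pellets and 618, 675 and 578 CPM in the eluates. It rose by 0.30 ± 0.070 (adjusted p = 0.00189), without overlap, from 1680.3 ± 65.0 to 1977 ± 102 TPM.

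The remaining 3 complex IV messages changed little. Cox7a2 was called at 0.19 ± 0.076 (adjusted p = 0.049), but the call was lost on leaving out any 1 library or any pair of the same number (adjusted p 0.053 to 0.21). Cox7b was at 0.13 ± 0.069 (adjusted p = 0.115), although each of its eluates lay above each pellet. Cox6c, a small membrane subunit, was at 254, 316 and 327 CPM in the pellets and 282, 300.5 and 273 CPM in the eluates. All its eluates lay within the range of the pellets, with a log2 fold change of -0.069 ± 0.086, and without pellet 1 it was called lower at -0.18 (adjusted p = 0.00981).

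In complex III 3 messages of small subunits, Uqcrq, Uqcr11 and Uqcr10, rose, as did those of cytochrome c1 and the Rieske protein, while those of the small subunits Uqcrb and Uqcrh did not pass the test. Uqcrq, a small membrane subunit, was at 216, 202 and 202 CPM in the pellets and at 289, 299 and 305 CPM in the eluates (0.53 ± 0.064; adjusted p = 6.07e-06). Uqcr11, the smallest of the subunit messages by coding length after Atp5e, was at 154, 159.6 and 155 CPM in the pellets and at 225, 233 and 217 CPM in the eluates (0.53 ± 0.064; adjusted p = 6.69e-06). Cyc1, which encodes the heme protein that hands electrons to cytochrome c, was at 289.9, 242 and 258 CPM in the pellets and at 369, 380.4 and 386 CPM in the eluates (0.52 ± 0.071; adjusted p = 1.83e-05). The groups did not overlap in any of the 3. Uqcr10 rose by 0.38 ± 0.080 and Uqcrfs1, the Rieske iron-sulfur protein, by 0.33 ± 0.069. With the GC and length trend described below removed, Uqcrfs1 was still higher at 0.30. Uqcrq (0.078), Uqcr11 (0.0026), Cyc1 (0.11; adjusted p = 0.127) and Uqcr10 (-0.0090) were not called in that fit. Uqcrh, the hinge protein between cytochrome c1 and cytochrome c, missed the threshold at 0.19 ± 0.082 (adjusted p = 0.0581), and passed without pellet 2 (0.29; adjusted p = 0.00832).

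As counted, the messages of the 2 core proteins of complex III, which face the matrix, went apart. Uqcrc2 fell by 0.42 ± 0.072 (adjusted p = 0.000171), from 154, 169 and 164 CPM in the pellets to 130.3, 119.8 and 115 CPM in the eluates, without overlap. Uqcrc1 was at 0.036 ± 0.072, from 258 ± 23.5 to 264 ± 9.25 CPM (SD, n = 3). With the GC and length trend described below removed, the order turned. Uqcrc1 was then called lower at -0.43 (adjusted p = 5.17e-07), and Uqcrc2 was at -0.010 and not called. Per length, Uqcrc1 over Uqcrc2 was 1.92, 1.59 and 1.61 in the pellets and 2.11, 2.27 and 2.22 in the eluates, a ratio picked after the values were seen. Cycs, the mobile electron carrier cytochrome c, was at 269.6, 345 and 311 CPM in the pellets and at 276, 324 and 269 CPM in the eluates. Its groups overlapped, with a log2 fold change of -0.091 ± 0.094 (adjusted p = 0.444). Uqcrb, a small matrix-side subunit, was at -0.047 ± 0.10. Without pellet 1, Cycs (-0.18; adjusted p = 0.0229) and Uqcrb (-0.18; adjusted p = 0.0273) were both called lower, so that 25 subunit messages were higher and 6 lower in that fit. With all libraries and the GC and length trend removed, both were called higher, Cycs at 0.72 and Uqcrb at 0.44.

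The 4 complex II messages moved in opposite directions. Sdha, the flavoprotein that holds the succinate site, was at 179.6, 179 and 189 CPM in the pellets against 119.7, 104 and 97.1 CPM in the eluates. It fell by 0.77 ± 0.080 (adjusted p = 1.39e-06), the lowest value of the 41 genes, with every eluate below every pellet. Sdhb, the iron-sulfur subunit bound to it, was at 155, 169 and 159.9 CPM in the pellets and at 189.8, 195 and 187 CPM in the eluates (0.24 ± 0.065; adjusted p = 0.00579). The Sdhb call was lost without the libraries numbered 3 (adjusted p = 0.0637) and with TPM in limma (0.13; adjusted p = 0.167), and it turned to -0.21 with the GC and length trend described below removed. The 2 membrane anchors rose as well. Sdhc was at 161, 143 and 150.04 CPM in the pellets and at 216, 226 and 223 CPM in the eluates (0.55 ± 0.067; adjusted p = 6.9e-06). Sdhd was at 169, 166 and 155 CPM in the pellets and at 196, 207 and 202 CPM in the eluates (0.30 ± 0.066; adjusted p = 0.00114). No eluate of these 3 genes fell within the pellets' range. With the GC and length trend removed, Sdhc was at 0.12 and not called (adjusted p = 0.103), and Sdhd was still higher at 0.19 (adjusted p = 0.0107). Per length, the summed TPM of Sdhb, Sdhc and Sdhd over that of Sdha was 7.43, 7.46 and 6.86 in the pellets and 13.8, 16.6 and 17.1 in the eluates, again a ratio picked after the values were seen. Sdha has the longest coding sequence of the 41 genes, 1992 nt, against 405 to 846 nt for the other 3.

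Summed over all 41 genes, the subunit messages took 1.23%, 1.16% and 1.14% of the matched counts in the pellets and 1.51%, 1.52% and 1.48% in the eluates. Every eluate was above every pellet, and pellet 1 was the pellet nearest to them. The means were 1.18% ± 0.052 and 1.50% ± 0.017 (SD, n = 3), with an exact permutation p of 0.1 (two-sided), the smallest that 3 against 3 libraries can give, as for the other sums below unless stated (10 in the family, Benjamini-Hochberg value 0.1). By complex, the share went from 0.0655% to 0.0724% for complex II, from 0.188% to 0.221% for complex III with cytochrome c, from 0.308% to 0.448% for complex IV and from 0.615% to 0.760% for complex V. Complex IV gained most, by a factor of 1.46, and complex II least, by 1.11. The 37 nuclear subunits of complex I, the NADH dehydrogenase, went from 0.409% to 0.540%. The log2 ratio of complexes II to V over complex I was 1.52 ± 0.037 in the pellets and 1.48 ± 0.0042 in the eluates by counts, and 1.32 ± 0.021 and 1.30 ± 0.011 by TPM (exact permutation p = 0.4).

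**Figure D3:**
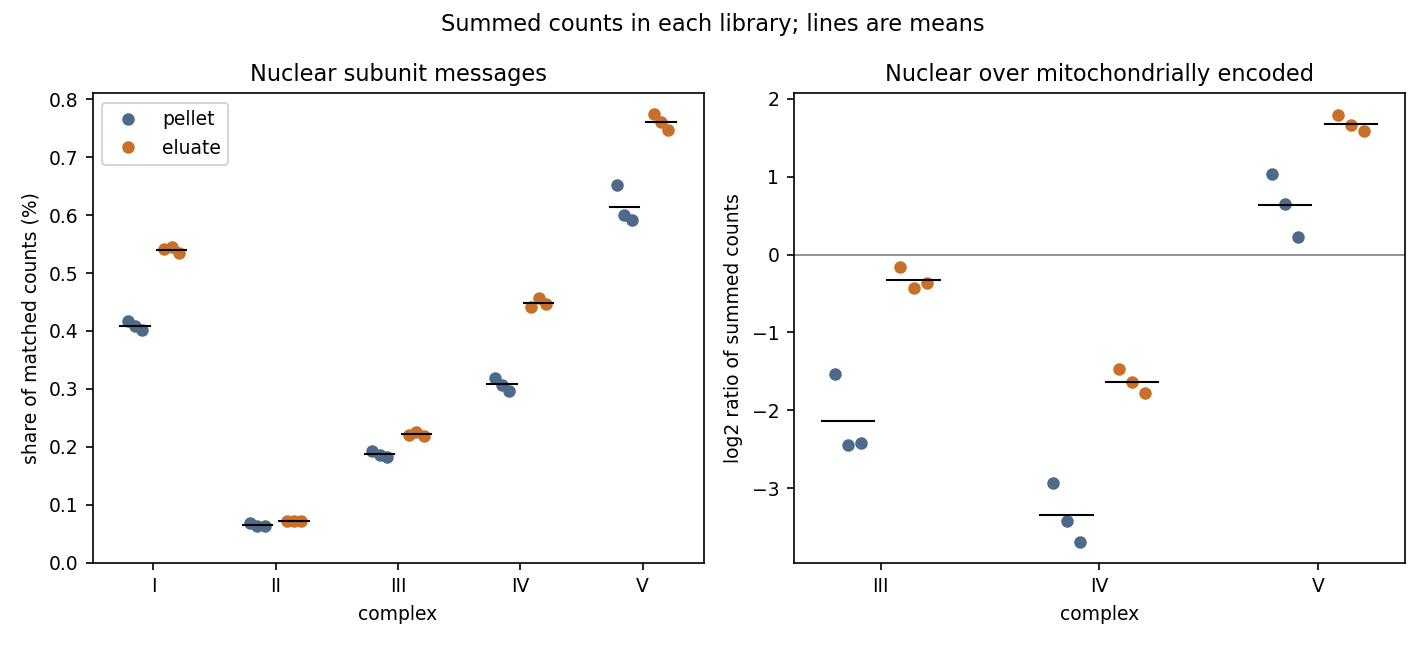
Left, share of matched counts (%) taken by the nuclear subunit messages of complexes I to V in each pellet and eluate. Right, log2 ratio of summed counts of nuclear to mitochondrially encoded subunits for complexes III, IV and V, with lines at the means; in every column all eluates lie above all pellets, and pellet 1 is the highest pellet on the right.

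Complexes III, IV and V are assembled from products of both genomes, and as counted the summed messages of the 2 genomes went opposite ways. All 6 mitochondrially encoded messages of these complexes fell, with a median log2 fold change of -1.29. The most abundant, mt-Co1, the catalytic subunit of complex IV, was at 14220.3, 23182 and 23852 CPM in the pellets and at 6441, 7714 and 8275 CPM in the eluates (-1.45 ± 0.25; adjusted p = 0.00795). Pellet 1 lay nearest to the eluates but did not overlap them. For complex III, the log2 ratio of nuclear to mitochondrially encoded counts was -1.53, -2.45 and -2.42 in the pellets and -0.17, -0.44 and -0.36 in the eluates, which is a 3.51-fold shift of the mean. For complex IV it went from -3.35 ± 0.38 to -1.63 ± 0.16, a 3.29-fold shift, and for complex V from 0.64 ± 0.40 to 1.68 ± 0.10, a 2.06-fold shift. Nuclear copies of mt-Atp6, mt-Co2 and mt-Co3 hold 99.5% to 99.9% of the 31-base runs of these messages, so reads can pass between them. With the copies counted as mitochondrial the log2 difference between groups was 1.84 for complex IV, where it was 1.72 without them, and 1.69 for complex V, where it was 1.05. The 6 mitochondrial messages have a median GC content of 38.7%, against 51.0% for the nuclear subunits. With the trend in GC and length described below removed, 3 of the 6 were lower (median -0.37), mt-Cytb at -0.85, mt-Co1 at -0.72 and mt-Co2 at -0.38. In that fit mt-Atp8 at -0.35, mt-Co3 at 0.00027 and mt-Atp6 at 0.20 were not called, and 16.3% of all genes tested were lower.

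Related genes were counted in the same way. Of the 37 complex I subunits, 27 were higher, 1 was lower and 9 did not pass (median 0.43). Ndufa7 rose by 0.76 ± 0.060 and was the most abundant per length, and Ndufs1, an iron-sulfur subunit that takes part in electron entry, fell by 1.29 ± 0.096. Of 37 assembly factors of complexes II to V, 15 were higher, 2 lower (Ttc19 and, named because the count is small, Tmem70) and 20 did not pass (median 0.12). Among all genes tested 24.5% were higher and 28.2% lower. The factors that were called were thus mostly higher, while their share called in either direction was below the 52.7% of all genes tested. With the GC and length trend described below removed, 18 complex I subunits were higher and 5 lower, and 13 assembly factors were higher and 3 lower. In that fit 19.5% of all genes tested were higher and 16.3% lower. Uqcc2, which helps to make cytochrome b, rose by 0.58 ± 0.086, from 74.9 ± 6.43 to 112 ± 9.67 CPM. Ttc19, a complex III factor, fell by 0.58 ± 0.12, from 24.6 ± 0.927 to 16.4 ± 2.15 CPM. Cox17, the copper chaperone of complex IV and the most abundant factor per length, rose by 0.23 ± 0.079. With the trend removed, Cox17 was still higher at 0.27, while Uqcc2 (0.025), Ttc19 (-0.066) and Tmem70 (-0.091) were not called. The 3 factors lower in that fit were Taco1, Surf1 and Tmem242, all uncalled as counted. Of 9 other isoforms of complex IV and cytochrome c, 5 had enough counts. Cox6b2, known from testis, rose by 0.67 ± 0.092, from 34.1 ± 3.46 to 54.3 ± 1.05 CPM, and Cox4i2, the other form of subunit IV, by 1.05 ± 0.29 from a low level of 1.75 ± 0.622 CPM. With the trend removed, Cox6b2 was still higher at 0.25, and Cox4i2 was at 0.49 and not called (adjusted p = 0.188). Cox7a2l, a supercomplex factor and the most abundant of these isoforms, was at -0.078 ± 0.076.

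Several subunit genes were counted as more than 1 transcript, which allowed messages with the same or a similar coding sequence and different lengths to be compared within a gene. Atp5g1 was counted as a form of 596 nt with 87.1% of the gene's counts in pellets and in eluates, and as a form of 4715 nt with 9.90% and 10.3%, both with a coding length of 408 nt. The log2 ratios of mean CPM were 0.82 for the short form and 0.87 for the long form. Sdhc, in turn, was split between forms of 815 and 3171 nt, with log2 ratios of 0.56 and 0.54. In both genes the long and the short form shifted alike. In Uqcrq the form of 1521 nt had a ratio of 0.65 and that of 405 nt a ratio of 0.36, with the same coding length, and the share of the long form was 54.7% ± 4.49 in the pellets and 59.6% ± 0.826 in the eluates (SD, n = 3; exact permutation p = 0.3). The long form's share in pellet 1, 59.5%, lay within the range of the eluates. Atp5h was counted as several forms with a coding length of 483 nt, and their ratios differed. Its main form of 625 nt had a ratio of 0.36, while a minor form of 659 nt had a ratio of -0.63. The share of that minor form was 5.37% ± 1.21 in the pellets and 2.63% ± 0.233 in the eluates, without overlap (exact permutation p = 0.1). A form of 486 nt had a higher ratio than the main form, but its counts were uneven. They were 157, 0 and 68.4 in the pellets and 332, 158 and 220 in the eluates. Its share was 5.89% ± 5.89 in the pellets and 10.3% ± 3.50 in the eluates (exact permutation p = 0.4). Estimates for the forms of 1 gene share reads and are less certain than those for the gene.

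The fold changes of the 41 genes followed the base composition of the message. Across the 41 genes, which share the same 6 libraries and are not independent replicates, Spearman's rho between log2 fold change and GC content of the most abundant transcript was 0.60 (Pearson's r 0.57). For GC of the coding sequence it was 0.65 and for the last codon position 0.54. For transcript length rho was -0.27 (r -0.57), and for coding length -0.11 (r -0.49). Over all genes tested rho was 0.71 with GC and -0.42 with length. The relations thus had the same sign in the subunit genes as in all genes. In the 13 subunit messages with a GC content of 55.0% to 61.1%, 12 were higher, with a median log2 fold change of 0.53. In the 14 with 39.0% to 49.0%, 6 were higher and both lower genes lay here, with a median of 0.16. The 14 between had 8 higher and a median of 0.26. Of all genes tested in the same 3 ranges of GC content, from high to low, 49.0%, 25.6% and 5.18% were higher, with medians of 0.36, 0.091 and -0.45. Both the count and the median of the subunit messages lay above those of all genes in each range. These ranges match GC content alone. The subunit messages were also shorter, with a median length of 731 nt against 2671 nt for all genes tested. Once length was taken into account beside GC, in the fit described below, their medians from high to low GC were 0.11, 0.050 and 0.43. The median of all genes tested was 0.014 in that fit. As counted, individual genes departed from the order by GC content. Cox5b and Cox5a, both at 49.0% GC, rose as much as Cox6a1 at 58.8%, and Uqcrc1 at 57.5% and Atp5a1 at 50.5% changed by under 0.05.

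**Figure D4:**
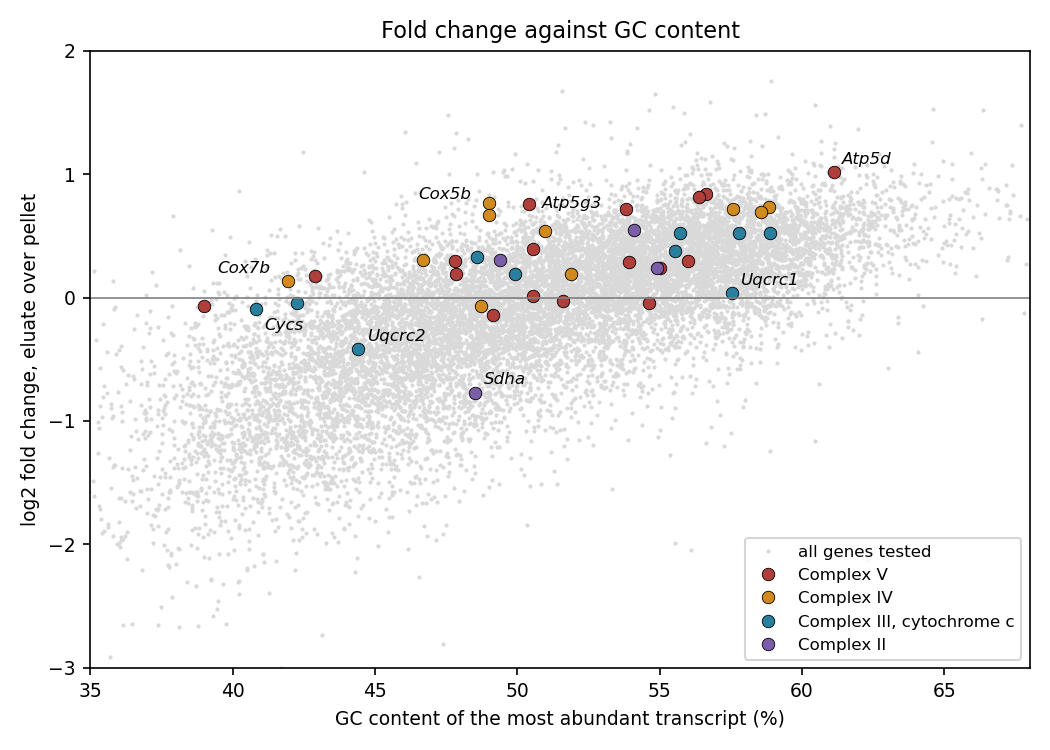
Log2 fold change of eluate over pellet (y axis) against the GC content (%) of the most abundant transcript (x axis), with the 41 subunit messages in colour and the 13231 genes tested in grey, of which 60 lie outside the axes. The subunit messages rise from left to right with the grey cloud, and at a given GC content most lie in its upper part, with Sdha and Uqcrc1 low in it.

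To see which differences remained beside genes of similar composition, the smooth trend of each library in GC content and length was removed before the edgeR test. In that fit 21 subunit messages were higher, 7 were lower and the median was 0.14, against 19.5% higher and 16.3% lower over all genes tested (35.8% in either direction). Of the 26 messages that were higher as counted, 16 were still higher, 7 were not called and 3 were lower, namely Sdhb at -0.21 (adjusted p = 0.00485), Atp5j at -0.23 (adjusted p = 0.00387) and Atp5j2 at -0.18 (adjusted p = 0.0153). Of the 13 without a call, 5 became higher and 3 lower. Among the highest values in this fit were those of AT-rich messages, with Cycs at 0.72, Atp5mpl at 0.72, Atp5s at 0.72, Cox7b at 0.57 and Uqcrb at 0.44. Cox5b at 0.64, Cox5a at 0.58 and Atp5g3 at 0.55 kept most of their size. Atp5d went from 1.01 to 0.32, Atp5g2 from 0.84 to 0.30, Atp5g1 from 0.82 to 0.32 and Cox4i1 from 0.72 to 0.14. Atp5o went from 0.72 to 0.30, while Atp5l was at 0.29 as counted and at 0.32 in this fit. Uqcr11 went to 0.0026 and Uqcrq to 0.078, neither called.

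On the lower side, Sdha was at -0.59 (adjusted p = 1.67e-07) and still below its neighbours in composition, while Uqcrc2 was at -0.010 and no longer called. Uqcrc1, uncalled as counted, was at -0.43 (adjusted p = 5.17e-07), Atp5f1 at -0.16 and Atp5b at -0.15 (adjusted p = 0.0296). With the trend in GC alone removed, 26 were higher and 2 lower, with a median of 0.35. The 2 lower were then Sdha at -0.58 and Uqcrc1 at -0.32, and Sdhb, Atp5j and Atp5j2 were at 2.6e-05, 0.0017 and -0.0086. Over the 41 genes, rho between the fold change with GC and length removed and GC content was -0.43, against -0.022 over all genes tested.

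**Figure D5:**
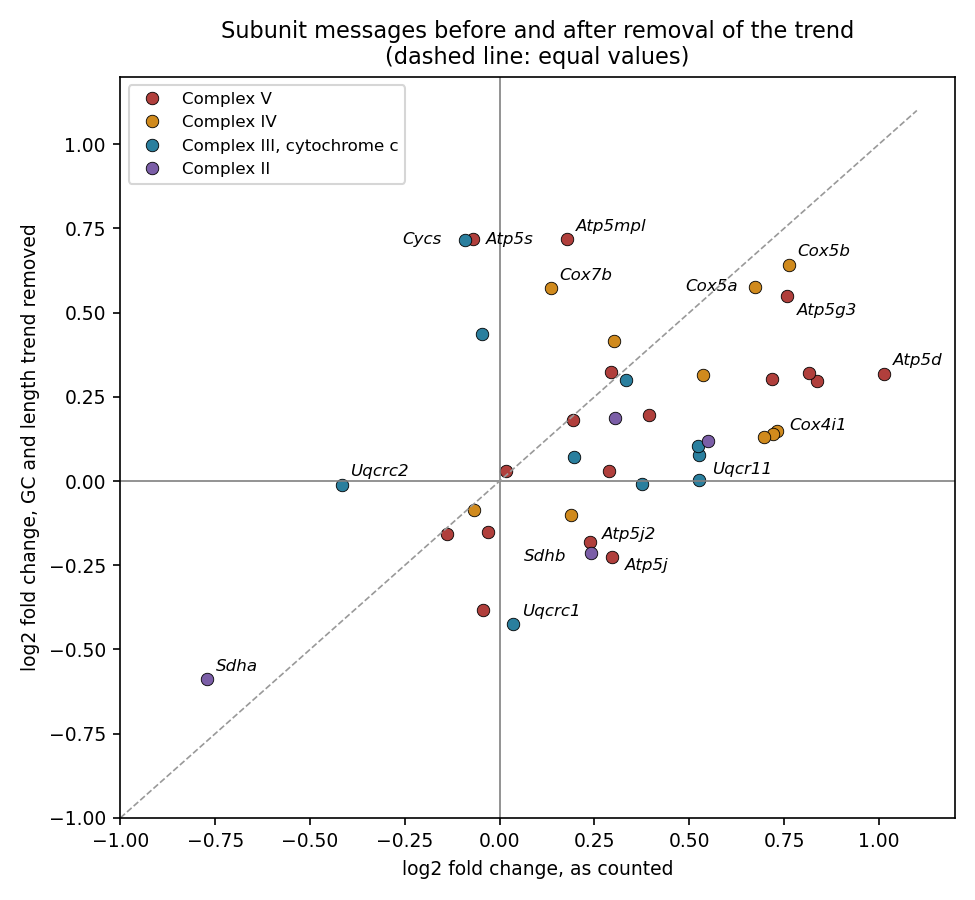
Log2 fold change of the 41 subunit messages as counted (x axis) and after removal of each library's GC and length trend (y axis), with a dashed line at equal values. Most messages lie under the line on the right, Sdha stays low at -0.77 and -0.59, and Cycs, Atp5s, Atp5mpl and Cox7b lie well above it.

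The authors' deposited table of the same comparison, which holds genes with an adjusted p under 0.05, lists 29 of the 41 subunit genes, 27 with a positive and 2 with a negative log2 fold change. All 29 had the same sign as in the edgeR fit, with a largest difference of 0.11 on the log2 scale, for Uqcrq (0.41 in the authors' deposited table and 0.53 here). Both analyses called 27 of them. Atp5k (0.33, adjusted p = 0.0447) and Cox7b (0.22, adjusted p = 0.026) are in the authors' deposited table and did not pass here, and Cox7a2 passed here and is not in it. The mean normalized counts of these genes from the matched transcripts were 0.990 to 1.00 times those in the authors' deposited table.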

How the data were processed

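Poly(A) RNA of 3 pellets and 3 eluates was grouped by the sample titles. The tools named in the submitters' processing notes, without their roles, were Salmon 1.10.3, STAR 2.7.11b, DESeq2 1.44.0 and cutadapt 4.7, and the build was GRCm39. Annotation release and settings were not given in the sources used here. Salmon files of the authors hold, per the file headers, an estimated count, a TPM and lengths for each transcript. The authors' deposited table holds the mean normalized count as a signal, the log2 fold change, its standard error, a score (Wald) and p-values.

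Of 84226 transcripts, 76858 matched GENCODE mouse release 21 by identifier. Its genome build differs from the authors', and coordinates are left out. The 7368 others, with 1.63% to 2.35% of counts, were left out. A second Atp5o entry with 0 counts was left out too. Every value column belonged to a sample. Estimated counts were summed per gene, rounded and tested in edgeR 4.0.16 (R 4.3.3; quasi-likelihood, robust, TMM factors, default low-count filter, no block, Benjamini-Hochberg over 13231 genes, adjusted p under 0.05). CPM values use the TMM-scaled totals of matched counts. The SE is the absolute log2 fold change divided by the square root of the F statistic. Intervals of 95% came from limma 3.58.1 (voom). GC and length trends were natural splines with 5 degrees of freedom per library, entered as offsets. TPM was tested as log2(TPM + 1) in limma. DESeq2 1.42.0 was an alternative, as were other scalings, filters, thresholds, a replicate block and leaving out libraries. Sums were compared by two-sided exact permutation tests. Python 3.11.15, pandas 2.3.3, numpy 2.4.6, scipy 1.17.1 and matplotlib 3.10.9 were used.

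On simulated data with 13231 genes, edgeR recovered 20% of 1.25-fold changes, 40% of 1.5-fold, 76% of 2-fold and 90% of 3-fold changes, with 9 false calls among 122. Only 50 genes per fold were changed there, drawn at random from all genes tested, whereas 52.7% of genes were called in the data. The rates therefore do not give the power for the subunit messages. The genes, lists, alternatives and naming rule were chosen with earlier results of these data known. Values in every library are given for all complex II genes, the c ring genes, and in each other complex the 3 higher members and 2 lower members with the smallest p, the most abundant by TPM and the extremes of fold change. The other lists give the smallest p each way and the most abundant gene.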

Additional observations from a re-analysis of the deposited data

How the results depend on the processing

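With other scaling, filters, tests, thresholds and units, 20 to 29 of the 41 subunit messages were higher, and 22 to 27 on leaving out libraries. The lower count was 2 in most settings, 7 with the GC and length trend removed, 7 with a replicate block and that trend removed, and 2 to 6 on leaving out libraries, with 6 without pellet 1 and 4 when pellet 1 and eluate 1 were both left out. TPM in limma gave 20 higher and 3 lower, with the calls of Sdhb (0.13), Sdhd (0.23), Uqcrfs1 (0.26), Cox7a2 (0.11), Atp5c1 (0.14) and Atp5j2 (0.13) lost. The cause of these shifts was not tested. The labels do not say that samples with the same number belong together, so the numbers were not taken to pair them. Deviations of samples with the same number correlated at 0.070, 0.15 and -0.010, and those with different numbers at -0.18 to 0.11. With 3 libraries a group, each centred on its group mean, these values cannot show whether pairs exist. With the replicate block alone 27 were higher and 2 lower, with Uqcrh added (0.20; adjusted p = 0.0247).

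Direction reversed with the GC and length trend removed for Sdhb (-0.21), Cycs (0.72), Uqcr10 (-0.0090), Uqcrb (0.44), Uqcrc1 (-0.43), Cox7a2 (-0.10), Atp5j (-0.23), Atp5j2 (-0.18) and Atp5s (0.72). With the replicate block added to that fit the values were -0.21, 0.72, -0.0029, 0.44, -0.43, -0.099, -0.22, -0.18 and 0.74 in the same order. With GC alone removed they reversed for Cycs (0.76), Uqcrb (0.69), Uqcrc1 (-0.32), Uqcrc2 (0.13), Cox6c (0.11), Atp5f1 (0.0044), Atp5j2 (-0.0086) and Atp5s (0.95). With upper-quartile factors, which move the median of all genes to 0.094, Cycs (0.00057), Uqcrb (0.045), Cox6c (0.023), Atp5b (0.061), Atp5e (0.047) and Atp5s (0.021) reversed. With an effective-length offset Uqcrc1 (-0.0082), Atp5a1 (-0.00016) and Atp5s (0.051) did, with TPM Uqcrc1 (-0.083), Atp5a1 (-0.077) and Atp5s (0.026), and with voom Atp5s (0.029). All of these except Sdhb, Uqcr10, Uqcrc2, Cox7a2, Atp5j and Atp5j2 were uncalled as counted.

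On leaving out libraries direction also reversed for Cycs (-0.18 to 0.0015), Uqcrb (-0.18 to 0.041), Uqcrc1 (-0.0033 to 0.11), Cox6c (-0.18 to 0.030), Atp5a1 (-0.0031 to 0.040), Atp5b (-0.063 to 0.0044), Atp5e (-0.46 to 0.23) and Atp5s (-0.38 to 0.34). The differences in summed shares and ratios kept their direction in each setting tried, but these settings were few. They were TPM, leaving out mitochondrially encoded genes, adding nuclear copies and leaving out each library in turn, and not every sum was tried in all. The sums were not computed with the GC and length trend removed, so whether their direction holds in that fit was not tested. With 3 libraries a group no exact test of a sum can pass 0.05, and the low counts of Atp5e and Atp5s leave wide intervals. The transcript estimates carry no molecule counts, so their errors here come from the spread between libraries.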
